A study of Mus musculus with 12 samples.

Results

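The transcripts of 8 chemokine receptors, Ccr1, Ccr2, Ccr6, Ccr7, Cxcr3, Cxcr4, Cxcr5 and Cx3cr1, were followed in splenic dendritic cells (DCs). They were taken by symbol from a table of 57009 mouse gene identifiers, each symbol matched 1 identifier, and all 8 had enough counts to be tested. The donor mice were C57BL/6 and bore B16 tumours that secreted Flt3 ligand, which increases DC numbers, so every group came from tumour-bearing, Flt3 ligand-exposed animals. T, B and NK cells and macrophages were removed with beads, and after 3 h of culture the DCs were sorted by their CD11b and CD11c. The 4 groups of 3 libraries were DCs cultured alone (DC only), with lipopolysaccharide, a bacterial product sensed by a Toll-like receptor (LPS), with syngeneic memory T cells of C57BL/6 mice (SynTem), or with memory T cells of BALB/c origin that recognise alloantigen (AlloTem). The T cells of the SynTem and AlloTem groups differed in strain as well as in specificity, and these cannot be told apart.

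Chemokine receptors are G protein-coupled receptors that read gradients of small secreted proteins and steer cell movement. In DCs, CCR2, CCR1, CCR6 and CX3CR1 are known from precursor and immature cells and guide entry into or positioning within tissues, whereas CCR7 is acquired on maturation and leads DCs along CCL19 and CCL21 into the T cell areas of spleen and lymph node. CXCR4 binds CXCL12 and takes part in marrow retention and DC migration, CXCR5 binds CXCL13 of B cell follicles, and CXCR3 binds the interferon-induced chemokines CXCL9 and CXCL10 and is best known from effector T cells. The level of a receptor transcript does not give the amount of receptor on the cell surface.

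Total counts per library lay between 13903574 and 21861156. Markers of DCs were abundant in all 12 libraries: Itgax (CD11c) lay between 261.2 and 470.2 CPM (counts scaled to the library total), Flt3 between 316.1 and 460.5 CPM and Zbtb46 between 101.8 and 224.3 CPM. The deposited batch numbers (1, 2 and 3) coincide with the replicate numbers in 12 of 12 libraries. Replicate 3 of every group and SynTem 2 had Y-linked transcripts summing to between 130.9 and 219.6 CPM, and the other 7 libraries had at most 10.3 CPM, so the libraries also differed in the sex of the cells they held. Xist, an RNA of female cells, was 137.6 to 455.1 CPM in the former and 610.0 to 1188.1 CPM in the other 7. The libraries with the higher Y-linked sums thus cannot be taken as wholly male. Nothing in the labels tells if replicates came from different mice or cultures, and p-values measure only how far these libraries scatter, possibly for technical reasons. DC only 1 and DC only 2 were far closer to each other than any other pair within a group (chi-square per gene 6.55, against 29.5 to 91.2 in the other 11 pairs, where sampling noise alone gives about 1). They differed by more than sampling noise and were kept as separate replicates, and the spread of DC only rests on them together with DC only 3. In bulk RNA, fewer cells carrying a receptor and less receptor RNA per cell cannot be told apart.

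Compared per length of exon, the 8 receptors differed widely in level. Ccr7 was the highest (mean 139.0 CPM per kb over the 12 libraries, range 59.5 to 252.8), followed by Cxcr4 (83.4, range 47.4 to 202.9), Ccr2 (63.3, range 40.7 to 88.4) and Cx3cr1 (38.9, range 16.5 to 65.8). The ranges of neighbours in this order overlapped, and the order differed between groups. In DC only the means were 79.1 CPM per kb for Ccr2, 77.1 for Ccr7, 62 for Cxcr4 and 52.4 for Cx3cr1. Ccr1 lay lower at 13.4 CPM per kb (10.4 to 18.8) and Cxcr3 at 4.91 (1.83 to 14.1). Ccr6 (1.19 CPM per kb) and Cxcr5 (0.719 CPM per kb) were the lowest, with 12 to 90 and 9 to 179 counts per library. Of 16 other chemokine receptors and related scavenging receptors, 11 were tested, and none had a mean above that of Cx3cr1. Among them were Ccrl2 (14.3 CPM per kb) and Xcr1 (8.94), the latter being the receptor of cross-presenting type 1 DCs.

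**Figure D1:**
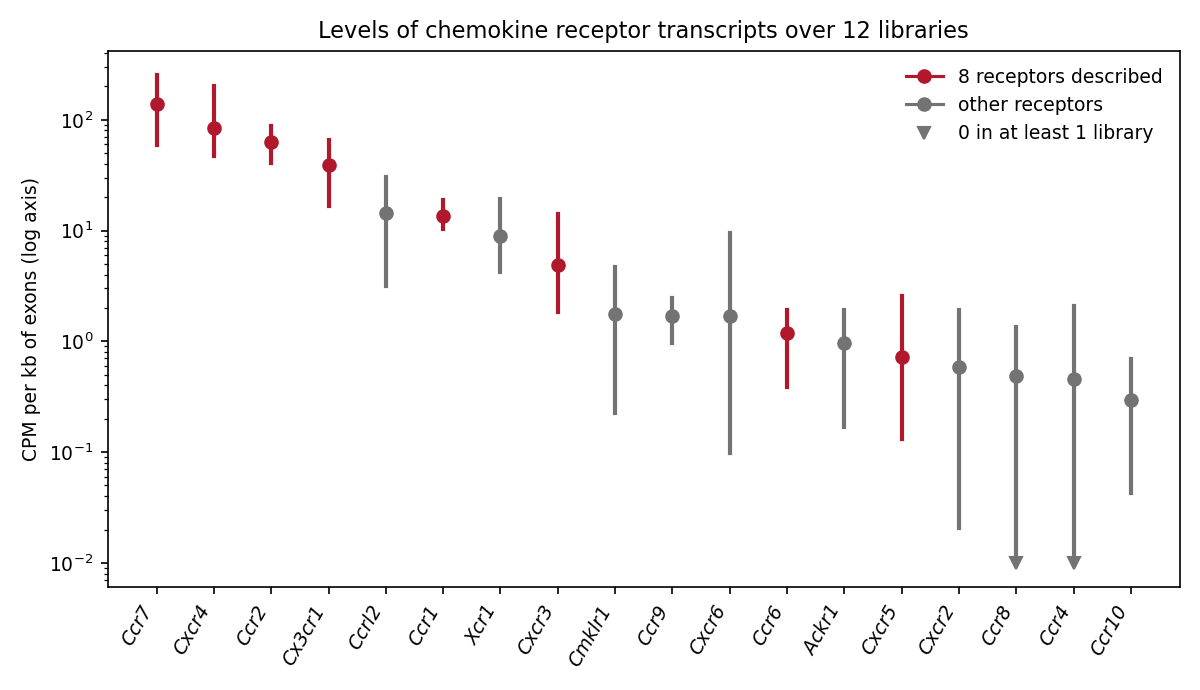
Level of tested chemokine receptor transcripts in CPM per kb of exons (log axis), with the mean of 12 libraries as a point and the lowest to highest library as a line. Ccr7, Cxcr4, Ccr2 and Cx3cr1 lead, from a mean of 139.0 down to 38.9 CPM per kb, and a triangle marks a receptor with 0 counts in at least 1 library.

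None of the 8 receptors passed the test in any of the 5 comparisons between groups (edgeR quasi-likelihood test over 14413 genes, Benjamini-Hochberg adjusted p under 0.05). The share of all tested genes that passed was 0.167% for AlloTem against SynTem, 1.76% for AlloTem against DC only, 0.451% for AlloTem against LPS, 0% for LPS against DC only and 0.0902% for SynTem against DC only. In a test for any difference among the 4 groups 0 of 8 passed against 1.26% of all genes. At an unadjusted p under 0.05 the same test held 3 of the 8 (Cxcr5, Ccr2 and Cxcr3) against 10.4% of all genes. At that unadjusted threshold the comparisons held 2 of 8 for AlloTem against SynTem (Cxcr5 and Cxcr3; 9.58% of all genes), 2 for AlloTem against DC only (Cxcr5 and Ccr2; 12.7%) and 3 for LPS against DC only (Ccr7, Cxcr5 and Ccr2; 3.68%). They held 0 for AlloTem against LPS (6.50%) and for SynTem against DC only (8.24%). With the batch number as a block Cxcr5 passed in AlloTem against DC only (edgeR adjusted p = 0.0246) and no other member passed in any comparison. DESeq2 called Cxcr5 in that comparison and in the test of 4 groups, and no other member. The comparisons with DC only share its 3 libraries and those of AlloTem share its 3, so they are not independent of each other. With so few called genes at these shares, 0 of 8 does not show that the receptors stayed level, and the values of each follow.

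**Figure D2:**
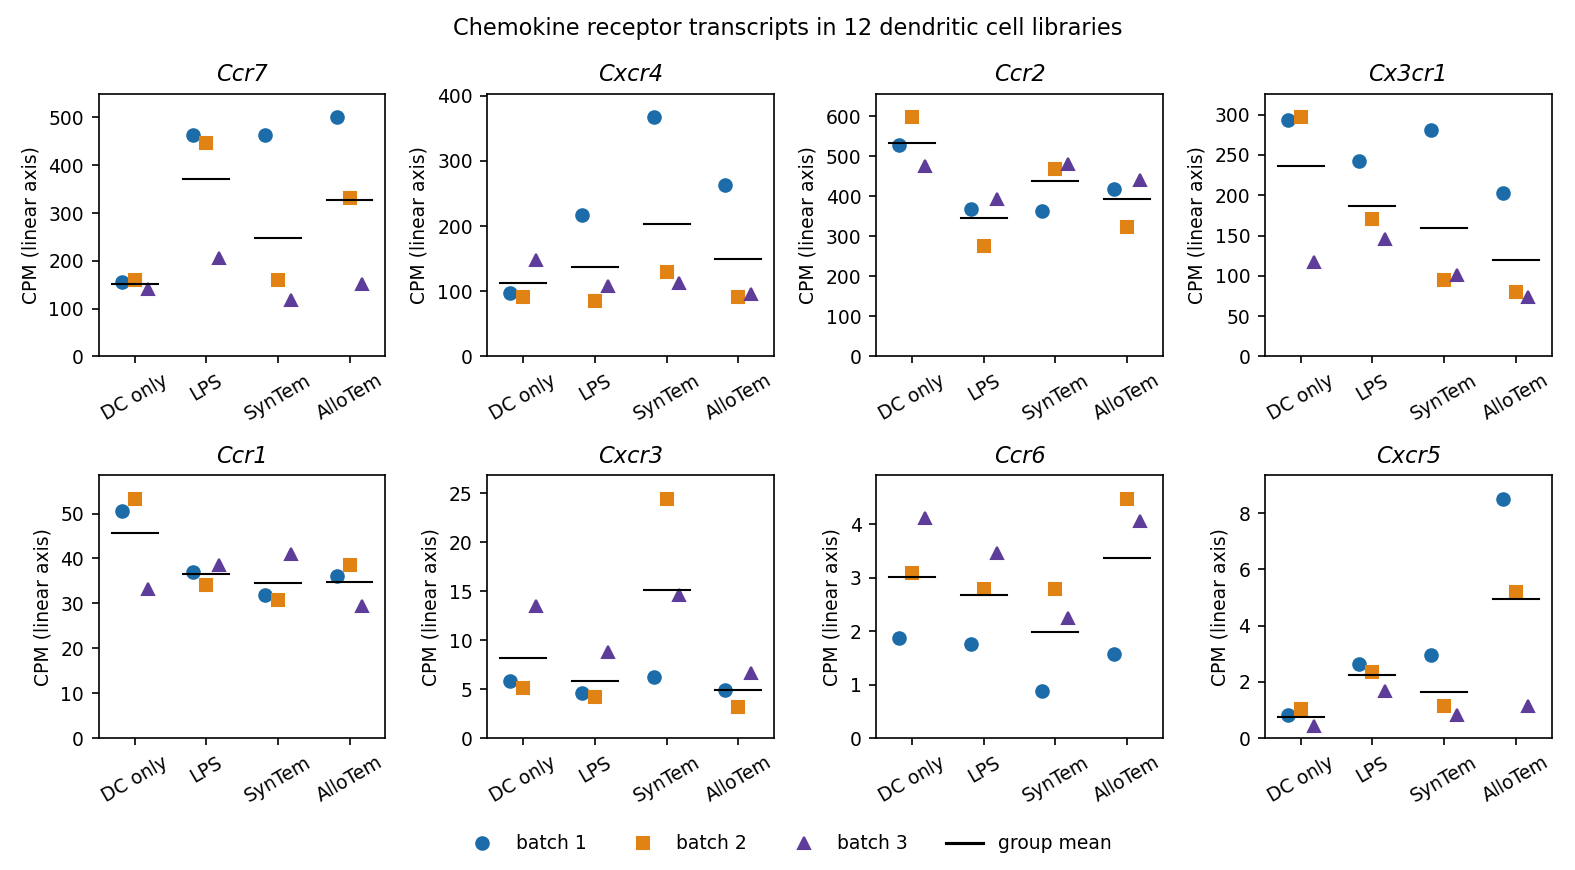
CPM of the 8 receptors in each of the 12 libraries on linear axes from 0, by group, with the symbol and colour giving the deposited batch number and a bar at the group mean. For Ccr7 the 3 DC only libraries sit between 142.1 and 160.3 CPM while the other groups spread up to 500.1, and for Ccr6 the lowest library of every group is from batch 1.

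Ccr7, the receptor for CCL19 and CCL21, was even in DCs cultured alone and uneven in every stimulated group. It measured 155.3, 160.3 and 142.1 CPM in DC only libraries 1 to 3 and 463.5, 445.6 and 206.4 CPM with LPS. With syngeneic T cells it was 464.2, 160.0 and 117.6 CPM, and with allospecific T cells 500.1, 331.3 and 152.0 CPM. All 3 LPS libraries lay above all 3 DC only libraries, whereas SynTem and AlloTem overlapped DC only because their batch 3 libraries, and SynTem 2, were as low as unstimulated cells. The fitted difference was 2.44-fold for LPS against DC only (log2 1.29, 95% interval 0.06 to 2.51, edgeR adjusted p = 0.999). It was 2.15-fold for AlloTem (95% interval of the log2 value -0.11 to 2.32, edgeR adjusted p = 0.449) and 1.62-fold for SynTem (log2 0.70, interval -0.51 to 1.91, edgeR adjusted p = 0.798). Within batches 1, 2 and 3 the log2 ratios were 1.57, 1.47 and 0.54 for LPS, 1.68, 1.05 and 0.10 for AlloTem, and 1.58, 0.00 and -0.27 for SynTem. SynTem 1 alone set the sign of the last comparison: without it the log2 difference was -0.14. AlloTem and LPS differed by -0.18 (interval -1.38 to 1.02), an interval that leaves room for a 2-fold difference either way. AlloTem and SynTem differed by 0.41 (interval -0.80 to 1.61), and by -0.03 without AlloTem 1.

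In the 5 libraries with the higher Y-linked sums, Ccr7 lay between 117.6 and 206.4 CPM, and in the other 7 between 155.3 and 500.1 CPM. Of the variance of log2 Ccr7 over the 12 libraries, 36% lay between conditions and 44% between batch numbers. The medians over all tested genes were 28% and 28.5%. The part of cell source in the uneven Ccr7 levels was not tested beyond adding the Y-linked level as a covariate, under which 0 of 3 comparisons with DC only passed. Rilpl2 and Tspan3 were among the genes most like Ccr7 over the 12 libraries, among 9708 with a mean of at least 5 CPM (Pearson r of log2 CPM 0.956 and 0.948). These correlations share libraries, depth and batch, and are given as a description.

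Cxcr5, the receptor for the follicular chemokine CXCL13, had the largest fitted difference of the 8 receptors, at a very low level. It measured 0.814, 1.03 and 0.441 CPM in DC only and 2.64, 2.37 and 1.68 CPM with LPS. It was 2.97, 1.14 and 0.83 CPM in SynTem and 8.5, 5.21 and 1.13 CPM in AlloTem. The 3 AlloTem libraries and the 3 LPS libraries all lay above the 3 DC only libraries, AlloTem 3 by a narrow margin, while SynTem overlapped DC only. Raw counts were 13, 18 and 9 in DC only against 179, 105 and 24 in AlloTem. The fitted difference of AlloTem from DC only was 6.49-fold (log2 2.70 ± 0.71 SE, interval 1.14 to 4.26, edgeR adjusted p = 0.102), with log2 ratios of 2.78, 1.90 and 0.80 within batches 1 to 3. It did not pass in the fit as planned. With the batch number as a block it passed (log2 2.45, edgeR adjusted p = 0.0246), as it did by DESeq2 (adjusted p = 0.00469), with the Y-linked covariate (edgeR adjusted p = 0.0195) and without AlloTem 3 (log2 3.18, edgeR adjusted p = 0.0212). Over all alternatives of this comparison the adjusted p ran from 0.00469 to 0.337, the latter by limma voom.

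For LPS against DC only the Cxcr5 difference was 2.93-fold (log2 1.55, interval 0.00 to 3.10, edgeR adjusted p = 0.999), higher in 3 of 3 batches. AlloTem was 3.02-fold above SynTem (log2 1.60, interval 0.12 to 3.08, edgeR adjusted p = 0.483) and 2.22-fold above LPS (log2 1.15, interval -0.30 to 2.59, edgeR adjusted p = 0.966). Cxcr5 is chiefly known from B cells and follicular helper T cells. Among 16 B cell markers, summed levels were 411.0 to 490.8 CPM in DC only, 419.2 to 479.1 in LPS, 333.3 to 470.1 in SynTem and 351.8 to 426.1 in AlloTem, and Ighm made up most of each sum. In AlloTem 3 of the 16 lay wholly above DC only (Blk, Cd79b and Ebf1), 2 wholly below (Ighm and Ighd) and 11 overlapped. Blk, a kinase of B cell receptor signalling, was 8.31, 8.88 and 9.77 CPM in AlloTem against 3.38, 4.74 and 4.36 in DC only. The summed level of 23 T cell markers was 348.8, 207.9 and 181.0 CPM in AlloTem libraries 1 to 3. It was 217.0, 130.0 and 85.7 CPM in LPS and 108.1, 124.5 and 79.3 CPM in DC only. Within each of these groups the order was that of Cxcr5. In SynTem it was not, with T cell sums of 331.3, 788.0 and 635.0 CPM beside Cxcr5 at 2.97, 1.14 and 0.83 CPM. Of the 23 markers, 17 lay wholly above DC only in AlloTem and 0 below. The part of B cell and T cell RNA in the Cxcr5 levels was not tested. Of the exon bases of Cxcr5, 3.3% overlap Bcl9l on the other strand, and the strand setting of the counting is unknown. Bcl9l differed by 0.10 between AlloTem and DC only (log2, edgeR adjusted p = 0.828). Most like Cxcr5 were Srgn, Ccser2 and Rgs1 (r = 0.966, 0.960 and 0.955), and Rgs1 is a brake on G protein signalling of chemokine receptors. Among the members themselves Cxcr5 was most like Ccr7 (r = 0.86 over the 12 libraries).

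Cxcr4, the receptor for CXCL12, differed more between libraries of a group than between groups. It measured 97.9, 90.8 and 147.9 CPM in DC only and 217.8, 85.7 and 108.1 CPM with LPS. It was 366.9, 130.2 and 113.2 CPM in SynTem and 263.4, 91.6 and 95.9 CPM in AlloTem. In each of the 3 stimulated groups the batch 1 library was the highest, and all groups overlapped. Fitted differences from DC only were 0.29 (interval -0.95 to 1.53), 0.86 (-0.39 to 2.11) and 0.42 (-0.82 to 1.66) on the log2 scale for LPS, SynTem and AlloTem (edgeR adjusted p = 0.999, 0.748 and 0.848). Within batch 1 the log2 ratios were 1.15, 1.90 and 1.42, and within batch 3 they were -0.45, -0.38 and -0.62, opposite in sign in all 3 comparisons. Batch numbers held 53.8% of the variance of Cxcr4 and conditions 14.1%. Most like it were Cr1l, Crebl2 and Nr1d2 (r = 0.974, 0.974 and 0.971), the last a nuclear receptor of the circadian clock.

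Ccr2, the receptor for CCL2 and CCL7 on monocytes and DC precursors, had its highest values in DCs cultured alone. It measured 529.5, 597.4 and 476.4 CPM in DC only and 369.2, 275.1 and 393.4 CPM with LPS. It was 362.5, 468.0 and 482.1 CPM in SynTem and 418.7, 323.8 and 441.7 CPM in AlloTem. The LPS and the AlloTem libraries all lay below the DC only libraries, and SynTem 3 overlapped them. The fitted level under LPS was 0.647 times that of DC only (log2 -0.63 ± 0.17 SE, interval -1.01 to -0.25, edgeR adjusted p = 0.999), lower in 3 of 3 batches. Under AlloTem it was 0.739 times that of DC only (log2 -0.44 ± 0.17 SE, interval -0.81 to -0.06, edgeR adjusted p = 0.304), also lower in 3 of 3 batches, by 0.34, 0.88 and 0.11 on the log2 scale. The direction was the same under 17 of 17 alternatives in each of these comparisons, with log2 values from -0.73 to -0.41 and from -0.52 to -0.22, and none passed. SynTem differed from DC only by -0.29 (interval -0.67 to 0.09) and AlloTem from SynTem by -0.15 (interval -0.53 to 0.23). Ccr2 ran against Ccr7 over the 12 libraries (r = -0.75), and conditions held 60.7% of its variance, the largest share of the 8 members. Most like it were Phlpp2, Cpt2 and Leprotl1 (r = 0.883, 0.875 and 0.875), Cpt2 being an enzyme of mitochondrial fatty acid oxidation. Ly6c2, which marks classical monocytes and some DC precursors, was 493.0, 518.7 and 109.8 CPM in the 3 DC only libraries, in which Ccr2 was high throughout. It was 273.0, 302.3 and 135.8 CPM in LPS, 223.3, 131.9 and 689.4 in SynTem and 234.0, 265.0 and 125.8 in AlloTem. In LPS and in AlloTem, Ly6c2 lay below DC only in batches 1 and 2 and above it in batch 3. The summed monocyte and macrophage markers are given beside Cx3cr1, and their part in the Ccr2 levels was not tested.

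Ccr1, which binds CCL3, CCL5, CCL6 and CCL9, was the least variable receptor, with a highest library 1.81 times the lowest. It measured 50.6, 53.2 and 33.1 CPM in DC only and 37, 34 and 38.6 CPM with LPS. It was 31.8, 30.8 and 41.1 CPM in SynTem and 36.1, 38.5 and 29.4 CPM in AlloTem. DC only 1 and 2 were above every other library, and DC only 3 lay within the other groups. Differences from DC only were -0.32 (interval -0.73 to 0.09), -0.40 (-0.81 to 0.01) and -0.39 (-0.80 to 0.01) on the log2 scale for LPS, SynTem and AlloTem (edgeR adjusted p = 0.999, 0.606 and 0.408). AlloTem and SynTem differed by 0.00 with an interval of -0.40 to 0.41, the narrowest of the 8 receptors after Ccr2. A change of 2-fold in either direction lies outside that interval. Most like Ccr1 were Sap30, Pkdcc and Vps33a (r = 0.896, 0.859 and 0.854).

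Ccr1 and Ccr2 lie close together on chromosome 9 of mm10 (GRCm38), within a cluster of chemokine receptor genes. Ccr1 (ENSMUSG00000025804) spans 123962124 to 123968692 on the minus strand and Ccr2 (ENSMUSG00000049103) 124101950 to 124113557 on the plus strand. Their promoters are shown because these neighbours were the members whose fitted values were lower than DC only in all 3 cultures with the narrowest intervals. RefSeq windows on GRCm38.p6, from 250 bases before to 50 after the start, were held for 6 of the 8 members, with 7 windows, and not for Ccr7 or Cxcr5. The start is the one in RefSeq, and it can lie inside the longer gene span used for the counts. The Ccr2 window lies almost wholly inside that span. The Cx3cr1 window and the second Ccr6 window lie wholly inside theirs. Capitals mark a match to the kB motif, the site bound by NF-kB, on either strand. A match is a description of the letters, not of binding.
Ccr1, chr9:123968643-123968942, minus strand: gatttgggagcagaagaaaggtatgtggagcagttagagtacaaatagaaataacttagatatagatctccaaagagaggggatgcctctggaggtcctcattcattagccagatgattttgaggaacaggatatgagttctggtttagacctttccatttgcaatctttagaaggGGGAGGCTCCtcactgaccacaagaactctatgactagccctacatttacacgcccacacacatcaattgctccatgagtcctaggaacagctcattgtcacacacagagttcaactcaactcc
Ccr2, chr9:124101933-124102232, plus strand: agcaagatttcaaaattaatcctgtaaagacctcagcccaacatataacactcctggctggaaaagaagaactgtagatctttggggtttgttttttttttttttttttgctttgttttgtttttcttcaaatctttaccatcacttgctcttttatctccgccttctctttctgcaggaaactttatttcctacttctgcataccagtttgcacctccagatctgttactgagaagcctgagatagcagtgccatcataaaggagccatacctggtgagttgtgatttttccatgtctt
The Ccr1 window held 1 kB match and the Ccr2 window none. Over the members 2 of 7 windows held a match, that of Ccr1 and 1 of the 2 windows of Ccr6, against 8.46% of 32851 windows of 300 bases of all genes. Of 3 further motifs searched on both strands, the AP-1 motif, TGACTCA or TGAGTCA, matched in 0 of the 7 windows (5.2% of all), the STAT6 motif TTCNNNNGAA matched in 0 of the 7 windows (6.95% of all) and the shorter-spaced GAS motif TTCNNNGAA in 1, the other window of Ccr6 (8.3% of all).

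Cxcr3, the receptor for CXCL9 and CXCL10, was highest in the libraries from syngeneic culture. It measured 5.82, 5.14 and 13.5 CPM in DC only and 4.65, 4.16 and 8.79 CPM with LPS. It was 6.24, 24.4 and 14.6 CPM in SynTem and 4.94, 3.18 and 6.61 CPM in AlloTem. SynTem 2 and SynTem 3 stood above all other libraries, DC only 3 came close to them, and SynTem 1 lay within the range of AlloTem. AlloTem had 0.325 times the level of SynTem (log2 -1.62 ± 0.54 SE, interval -2.82 to -0.42, edgeR adjusted p = 0.339), lower in 3 of 3 batches with log2 ratios of -0.31, -2.76 and -1.09. SynTem differed from DC only by 0.89 (interval -0.28 to 2.06, edgeR adjusted p = 0.704).

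Markers of T cells moved with Cxcr3 in SynTem. The summed level of 23 T cell markers was 331.3, 788.0 and 635.0 CPM in SynTem, 181.0 to 348.8 in AlloTem, 85.7 to 217.0 in LPS and 79.3 to 124.5 in DC only, and their part in the Cxcr3 difference was not tested. In DC only 3, where Cxcr3 was 13.5 CPM, the T cell sum was the lowest of the 12. Of the 23 markers, 15 were lower there than in DC only 1 and 2 (Bcl11b and Skap1 at 0), 5 were higher (among them Cd5 at 10.6, Cd6 at 6.07 and Cd3e at 0.245 CPM) and 3 lay between or level. In the 5 libraries with the higher Y-linked sums, which are the batch 3 libraries and SynTem 2, Cxcr3 lay between 6.61 and 24.4 CPM. In the other 7 it lay between 3.18 and 6.24 CPM, a narrow margin. This split is nearly that of batch 3 from the other batches, so sex and batch cannot be told apart here. The share of all genes that split in this way was not counted. Cxcr3 lies on the X chromosome (101731535 to 101734269, minus strand, mm10). Most like it were Pdk1, E2f6 and Tfap4 (r = 0.971, 0.936 and 0.919).

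**Figure D3:**
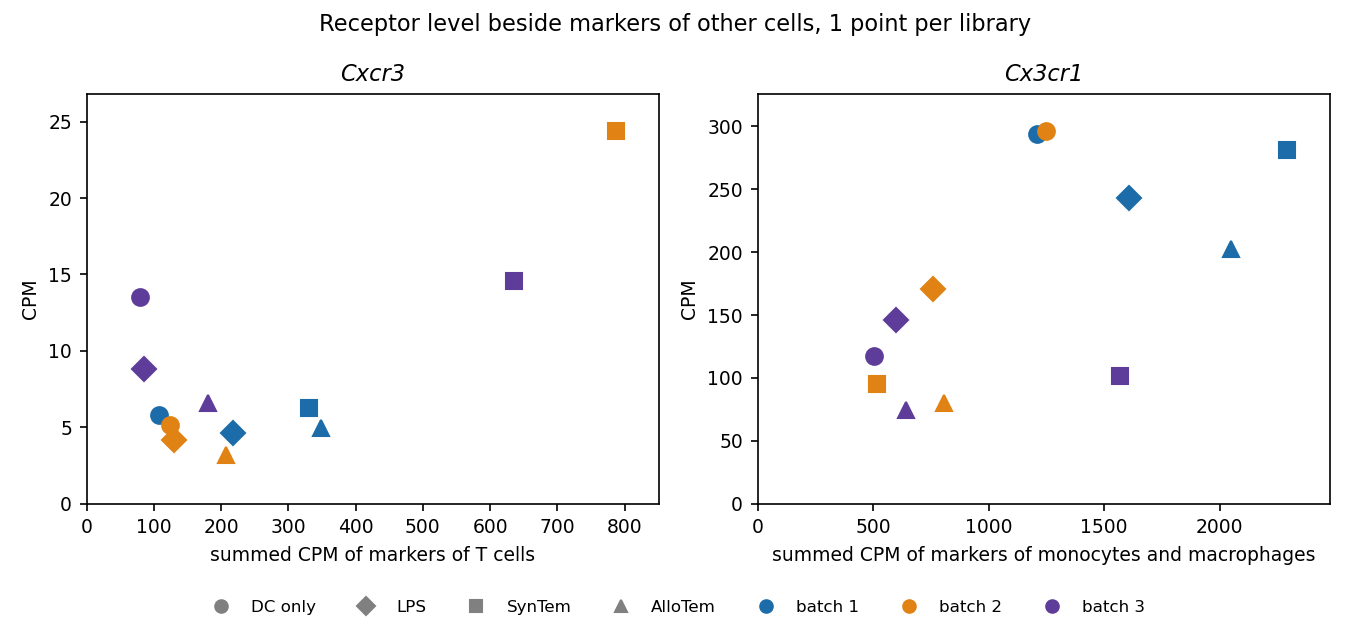
Level of Cxcr3 against the summed T cell markers (left) and of Cx3cr1 against the summed monocyte and macrophage markers (right), in CPM on linear axes from 0, 1 point per library, with the symbol giving the group and the colour the batch number. SynTem 2 and SynTem 3 have the most T cell marker RNA and the most Cxcr3, DC only 3 has Cxcr3 at 13.5 CPM with the least T cell marker RNA, and SynTem 3 has 101.4 CPM of Cx3cr1 beside 1567.4 CPM of monocyte markers.

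Cx3cr1, the fractalkine receptor of monocytes and of some DCs, had its highest group mean in DC only and its lowest in AlloTem. It measured 293.9, 296.5 and 117.5 CPM in DC only and 242.9, 170.4 and 145.9 CPM with LPS. It was 281.5, 94.9 and 101.4 CPM in SynTem and 202.5, 80.3 and 74.3 CPM in AlloTem. The groups overlapped because DC only 3 lay below all 3 LPS libraries, SynTem 1 and AlloTem 1. DC only 3 lay above SynTem 2, SynTem 3, AlloTem 2 and AlloTem 3. AlloTem had 0.505 times the level of DC only (log2 -0.99 ± 0.54 SE, interval -2.19 to 0.21, edgeR adjusted p = 0.517), lower in 3 of 3 batches by 0.54, 1.88 and 0.66 on the log2 scale. It was also lower than LPS and than SynTem in 3 of 3 batches (log2 -0.65, interval -1.84 to 0.55, and -0.42, interval -1.61 to 0.77; edgeR adjusted p = 1 and 0.856). The last of these turned to 0.28 without SynTem 1.

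Summed monocyte and macrophage markers (18 genes) were 1208.2, 1250.3 and 504.5 CPM in DC only, 1608.6, 759.3 and 597.4 in LPS, 2292.6, 515.3 and 1567.4 in SynTem and 2046.7, 804.7 and 643.6 in AlloTem, and their part in the Cx3cr1 levels was not tested. In AlloTem 5 of the 18 lay wholly above DC only, 0 below and 13 overlapped. Summed NK cell markers (11 genes) were 522.6, 542.9 and 216.0 CPM in DC only and 1066.7, 382.6 and 179.6 in LPS. They were 847.9, 301.6 and 299.3 CPM in SynTem and 984.3, 351.0 and 189.7 in AlloTem. Within DC only, LPS and AlloTem their order was that of Cx3cr1, and in SynTem it was not. LPS 1, SynTem 1 and AlloTem 1 exceeded DC only 1 and 2 in them but not in Cx3cr1. The part of NK cell RNA in the Cx3cr1 levels was not tested. Ace and Treml4, known from patrolling monocytes, reached 666.2 and 121.5 CPM in SynTem 1, 535.3 and 102.4 CPM in AlloTem 1 and 299.9 and 84.6 CPM in LPS 1. Within each stimulated group this batch 1 library was the highest in Ace, in Treml4 and in Cx3cr1. Csf1r and Adgre1 had the same highest libraries, but not all of the 18 markers did. F13a1 was highest in LPS 3, SynTem 3 and AlloTem 3 (115.8, 256.5 and 105.1 CPM), and Ly6c2 in LPS 2, SynTem 3 and AlloTem 2. In DC only 1 and 2 Ace and Treml4 were 107.0 to 108.6 and 33.5 to 34.7 CPM, at a higher Cx3cr1 level than in LPS 1, SynTem 1 and AlloTem 1. In DC only 3, the lowest of its group in Cx3cr1, they were 50 and 15.7 CPM. In the 5 libraries with the higher Y-linked sums, Cx3cr1 lay between 74.3 and 145.9 CPM, and in the other 7 between 80.3 and 296.5 CPM. Among the genes most like it were Fmnl1 and Plxnb2 (r = 0.982 and 0.967), of which Fmnl1 encodes a formin of actin assembly. Gm33858, an antisense transcript that overlaps 1.7% of its exon bases, differed by -1.55 between AlloTem and DC only (log2, edgeR adjusted p = 0.256). Without knowledge of strand in the counting, reads of the overlap cannot be assigned to either gene.

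Ccr6, the receptor for CCL20, was near the lower limit of what was tested. It measured 1.88, 3.08 and 4.11 CPM in DC only, 1.76, 2.79 and 3.47 in LPS, 0.892, 2.79 and 2.25 in SynTem and 1.57, 4.47 and 4.06 in AlloTem. The batch 1 library was the lowest of its group in 4 of 4 groups, and batch numbers held 70.7% of the variance against 21.2% for conditions. Ccr6 and Cxcr4 ran against each other over the 12 libraries (r = -0.78), with Cxcr4 high where batch 1 was stimulated. AlloTem was 1.69-fold above SynTem (log2 0.76, interval -0.36 to 1.87, edgeR adjusted p = 0.673), higher in 3 of 3 batches. Most like Ccr6 were Armc9, Thap12 and Whrn (r = 0.961, 0.941 and 0.922). The other comparisons of Ccr6 had adjusted p between 0.811 and 1.

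**Figure D4:**
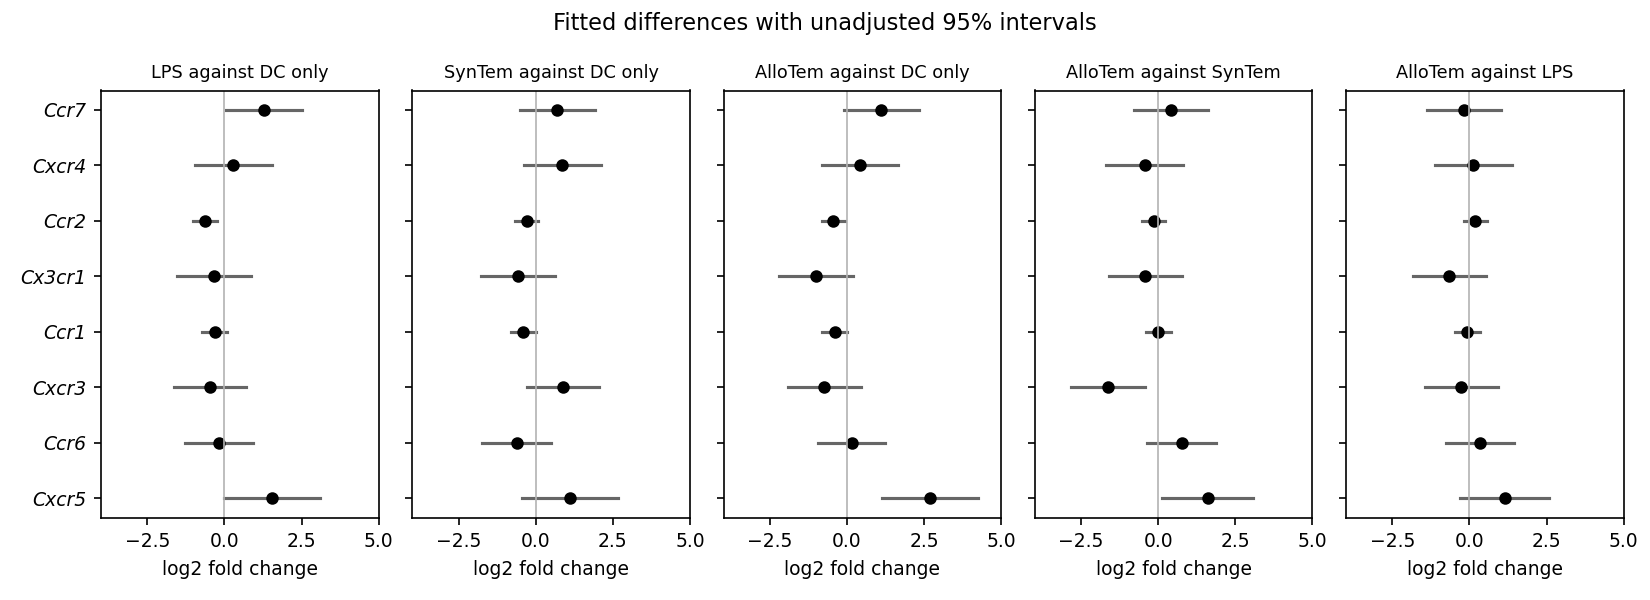
Fitted log2 fold change of the 8 receptors in the 5 comparisons (points) with unadjusted 95% intervals (lines), first group minus second. The intervals that leave out 0 before adjustment are those of Ccr2 and Ccr7 for LPS against DC only, Ccr2 and Cxcr5 for AlloTem against DC only, and Cxcr3 and Cxcr5 for AlloTem against SynTem, with that of Cxcr5 for LPS against DC only starting at 0.00.

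Counted over the 8 members, 1 lay wholly above (Cxcr5) and 1 wholly below (Ccr2) the DC only replicates in AlloTem, where 17.2% of all tested genes did not overlap (9.35% higher, 7.82% lower). In LPS 2 lay above (Ccr7 and Cxcr5) and 1 below (Ccr2), where 9.87% of all genes did not overlap (5.36% higher, 4.51% lower). In SynTem against DC only and in AlloTem against LPS the count was 0 of 8, against 14.3% and 10.1% of all genes. The median log2 difference of the members was -0.12 for AlloTem, -0.25 for LPS and 0.20 for SynTem, each against DC only, with a median of 0.00 over all genes in these 3 comparisons. Receptors of opposite sign made up these medians, with 4 of 8 positive in AlloTem and SynTem and 3 of 8 in LPS.

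Of the 18 ligands of the 8 receptors, 10 were tested and 1 passed, in AlloTem against DC only, where 1.76% of all genes passed. Ccl4 rose there, with 63.4, 72.3 and 17.5 CPM against 7.26, 7.03 and 3.62 CPM (8.58-fold, log2 3.10 ± 0.61 SE, edgeR adjusted p = 0.034). The ligand list had 9 of 10 positive and a median of 2.03 in that comparison, where the median of all genes was 0.00. Markers of other cells were also higher in AlloTem. The 23 T cell markers summed to 181.0 to 348.8 CPM against 79.3 to 124.5 in DC only, and 10 basophil and mast cell markers to 274.2, 51.8 and 59.8 CPM against 19.5, 20.2 and 3.72, with 8 of the 10 wholly above DC only. The 11 NK cell markers summed to 984.3, 351.0 and 189.7 CPM against 522.6, 542.9 and 216.0, above DC only in AlloTem 1 alone. The part of these cells in the ligand levels was not tested. The Ccl4 call was lost in 10 of 17 alternatives (adjusted p up to 0.145). Among these were leaving out any single DC only library, AlloTem 1 or AlloTem 2 (edgeR adjusted p from 0.0897 to 0.141), limma voom (0.115), no filter on low counts (0.104) and the fit of only the 6 libraries compared (0.0907). Several ligands of these receptors had no counts or nearly none, and are named here after their values were seen. Over the 12 libraries together Ccl21a, Ccl20, Cxcl13 and Ccl8 had 0 counts, which allows up to 0.0141 CPM. Cxcl12 had 1 count, Ccl19 had 2, Ccl12 had 6 and Ccl7 had 44. The limit of 0.0141 CPM covers sampling only, because the handling of reads matching several genes is not known.

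Genes of receptor signalling and desensitisation were measured in full, 24 of 24 tested, and 2 passed, both in AlloTem against DC only, where 1.76% of all genes passed. Rgs14 fell from 68.6, 64.3 and 68.5 CPM to 45.5, 33.9 and 48.2 CPM (log2 -0.66 ± 0.12 SE, edgeR adjusted p = 0.0255). Rgs2 fell from 113.8, 106.5 and 185.5 CPM to 74, 72.2 and 73.8 CPM (log2 -0.88 ± 0.19 SE, edgeR adjusted p = 0.0444). Both encode regulators of G protein signalling, a family that shortens the signals of G protein-coupled receptors. Rgs2 lost its call in 12 of 17 alternatives, with the batch block (edgeR adjusted p = 0.054), limma voom (0.0621), the 5 CPM filter (0.0555), only the 6 libraries compared (0.163) and without each of these 6 in turn (0.0592 to 0.156), among others. Rgs14 lost it in 6 of 17, without AlloTem 1 or any DC only library (edgeR adjusted p from 0.0527 to 0.114), with only the 6 libraries compared (0.126) and without DC only 2 and SynTem 2 (0.141). The median of the list was -0.05, with 10 of 24 positive.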

How the data were processed

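RNA was measured in 12 libraries of sorted mouse dendritic cells. The authors deposited raw counts per Ensembl gene identifier, with no normalization, and a table of batch numbers. Libraries were made with a TruSeq kit, per the labels' protocols. The genome build was mm10 (submitters' processing notes). Aligner, counter, strand setting and the handling of reads matching several genes: not given in the sources used here. Reads of close paralogs could be split between them. Symbols and exon lengths came from GENCODE M21 (52080 identifiers matched; the other 4929 held 0.754% of counts).

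Genes were filtered with filterByExpr (minimum count 10, minimum total 15), and TMM-scaled, and a robust quasi-likelihood model with a mean for each group was fitted to all 12 libraries (edgeR 4.0.16 under R 4.3.3). Benjamini-Hochberg adjustment covered the 14413 tested genes, and 0.05 was the threshold. A standard error is |log2 fold change| over the root of its F, intervals are 95% and unadjusted, and cover the spread between libraries. CPM uses TMM-adjusted totals; ratios within a batch add 0.5 CPM; log2 CPM for correlations has a prior count of 2. That model has no batch term. Because a deposited table names the replicate numbers batches, a fit with them as a block was run as an alternative, and its value is given where it changes a call. Deviations from group means correlated at a median of 0.247 over 18 pairs of the same number (12 above 0.1) and -0.201 over the other 36 pairs, and 10 of 12 libraries were closest to their own number, DC only 2 and SynTem 2 not. Alternatives were RLE and upper quartile scaling, DESeq2 1.42.0, limma voom 3.58.1, other filters, the replicate block by batch number, the Y-linked level as a covariate, and leaving out libraries. The code was tested on simulated counts.

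The 8 receptors and the lists were chosen with earlier results of these data known. The rule for names took all 8 members, called members of each other list, and the 3 genes of highest correlation with each member (mean of at least 5 CPM, with a symbol that is not a predicted one). Results of some genes that this rule takes are not reported here.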

Additional observations from a re-analysis of the deposited data

How the results depend on the processing

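Each member in each of 5 comparisons was refitted under up to 17 alternatives, 670 fits in all. Of these, 633 kept the sign and the side of the threshold, 4 passed where the fit over 12 libraries did not (all Cxcr5, AlloTem against DC only) and 33 changed sign, none of them called. Members called in AlloTem against DC only went from 0 to 1 with DESeq2, the replicate block and the Y-linked covariate, and ranged from 0 to 1 when single libraries were left out. In the test of 4 groups DESeq2 called 1. The replicate block changed no other member's call.

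Signs turned mostly where a log2 difference was near 0. Ccr1 in AlloTem against SynTem was -0.02 with upper quartile scaling, 0 with limma voom, 0 with a mean of at least 5 CPM, -0.01 with the replicate block, -0.09 with the Y-linked covariate, -0.07 without DC only 2 and SynTem 2, and -0.1 with those left out under the replicate block. The last setting, chosen after seeing the data, also gave 0.04 for Ccr2 in AlloTem against SynTem, -0.02 for Ccr6 in AlloTem against DC only and 0.12 for Cx3cr1 in LPS against DC only. Leaving out single libraries gave these log2 ranges. For AlloTem against SynTem they were -0.09 to 0.15 for Ccr1, -0.03 to 1.25 for Ccr7, -1.12 to 0.31 for Cxcr4 and -1.04 to 0.28 for Cx3cr1. For AlloTem against DC only they were -0.11 to 0.49 for Ccr6 and -0.26 to 0.68 for Cxcr4. For AlloTem against LPS they were -0.16 to 0.04 for Ccr1, -0.62 to 0.17 for Ccr7, -0.52 to 0.16 for Cxcr3 and -0.55 to 0.63 for Cxcr4. For LPS against DC only they were -0.43 to 0.11 for Ccr6, -0.89 to 0.1 for Cxcr3 and -0.21 to 0.54 for Cxcr4. For SynTem against DC only Ccr7 ranged from -0.14 to 1.03.

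Counts of all genes called moved by more than 1.5 times under these settings, and the cause was not tested. In the order AlloTem against SynTem, AlloTem against DC only, AlloTem against LPS, LPS against DC only, SynTem against DC only and the test of 4 groups, DESeq2 called 318, 677, 286, 11, 255 and 770 genes, and the fit with DC only 2 and SynTem 2 left out called 2, 16, 25, 1, 1 and 27. In the same order without LPS against DC only, the replicate block called 78, 420, 136, 21 and 299, and the Y-linked covariate 39, 604, 188, 44 and 383. Fits of only the 6 libraries compared called 0, 98 and 9 for the comparisons with AlloTem and 1 for SynTem against DC only. Without a filter 41 genes passed for AlloTem against SynTem and 33 for SynTem against DC only. Limma voom called 2 for SynTem against DC only and 75 in the test of 4 groups, and the 5 CPM filter 116 in the latter. The replicate block without DC only 2 and SynTem 2 called 37 for AlloTem against SynTem, 198 for AlloTem against LPS and 1 for LPS against DC only. Leaving out single libraries gave 3 to 47, 42 to 323, 9 to 55, 0 to 1, 0 to 56 and 69 to 215 genes in the order first given.

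Depth limits Cxcr5 and Ccr6, which had as few as 9 and 12 counts in a library and were not tested under the 5 CPM filter.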
